A study of Mus musculus with 8 samples.

Results

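The genes described here act in DNA replication and S phase: they license replication origins, build and drive the replication fork, supply deoxynucleotides, assemble chromatin on new DNA or control the passage from G1 into S phase. They form a list of 48 genes defined by function, with no measured value in the rule, but the choice was made with earlier results of these data known. All 48 were among the 31053 genes in the count files. RNA was sequenced from 8 cultures of fibro/adipogenic progenitors (FAPs), the mesenchymal cells of skeletal muscle that can become fat or scar-forming cells. All cultures came from hind limb muscles of mdx mice (strain C57BL/10ScSn-Dmdmdx/J, 45 days old), which carry a mutation in the dystrophin gene Dmd, so that the mutation was shared by both groups and no wild type sample was compared. FAPs were sorted as CD45- CD31- ITGA7- SCA-1+ cells and divided by the amount of the surface antigen SCA-1 into SCA1-High-FAPs (n = 4) and SCA1-Low-FAPs (n = 4, the control group by the study's description), and both were then grown for 5 days in growth medium. The RNA therefore reports on cells in culture and not on freshly sorted cells, and it does not measure S phase cells directly.

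Before a cell copies its DNA, the origin recognition complex with CDC6 and CDT1 loads the MCM helicase onto origins during G1. CDC45 and the GINS complex then switch the helicase on, polymerase alpha and primase start new strands, the PCNA clamp holds the elongating polymerases on the template, and FEN1 and DNA ligase I join the Okazaki fragments. Many of these genes are known targets of E2F transcription factors, whose activity rises as cells commit to S phase, so their mRNA is widely used as a readout of cycling cells in bulk samples.

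To show what the promoters of these genes look like, the 250 bases before each RefSeq start site (build GRCm38.p6) were searched on both strands for 4 E2F-type octamers, TTTCCCGC, TTTCGCGC, TTTGCCGC and TTTGGCGC. Of the 48 genes, 40 had a promoter entry, and Gins1, Gins2, Gins4, Prim2, Ccne2, Rfc2, Pole and Mcm4 had none. An octamer was present for 9 of the 40 genes (22.5%), against 2.16% of all 27025 genes with an entry and 4.09% of the 8095 with an entry that were tested for expression. It was present for 3 of 10 genes called in the comparison described further on, namely Cdc6, Mcm5 and Pola1, and for 5 of the 29 that were tested and not called (17.2%). These stretches are given for the 3 called genes, and for Mcm6, which was not called, as a contrast, with the matched octamers in capitals, 5′ to 3′ along the gene's own strand. In Mcm5 and in the Mcm6 stretch a match on each strand overlapped the other, so that the capitals cover both. The Cdc6 stretch is kept short because it lies within the annotated gene. The Mcm5 stretch is chr8:75109326-75109397 on the plus strand, that of Pola1 is chrX:93632256-93632323 on the minus strand, that of Cdc6 is chr11:98908002-98908031 on the plus strand and that of Mcm6 is chr1:128359774-128359845 on the minus strand.
Mcm5: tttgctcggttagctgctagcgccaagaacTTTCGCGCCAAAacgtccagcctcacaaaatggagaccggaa
Pola1: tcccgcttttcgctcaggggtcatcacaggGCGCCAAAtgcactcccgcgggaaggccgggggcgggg
Cdc6: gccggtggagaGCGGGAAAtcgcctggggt
Mcm6: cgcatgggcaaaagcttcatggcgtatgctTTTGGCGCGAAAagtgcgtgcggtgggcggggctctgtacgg

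A match is a description of the letters in this window, and the absence of one says only that these octamers are not in it. The CCAAT box (CCAAT on either strand) was found for 60.0% of the 40 genes, for 37.5% of all genes with an entry and for 40.8% of the tested ones. The CHR element (TTTGAA on either strand), which is known from promoters of genes active in G2 and mitosis, was found for 12.5% of the replication genes, for 18.3% of all genes, for 12.4% of the tested genes and for 37.1% of 35 mitosis genes with an entry. Those mitosis genes held an E2F-type octamer in 5.71% of cases and a CCAAT box in 74.3%. Of 52 other replication genes with an entry, a list described further on, 23.1% held an octamer. A CCAAT box was found for 48.1% of these 52 and a CHR element for 21.2%. The list of 48 genes and the mitosis list thus held these motifs in different shares. The shares of the lists were not tested against each other.

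Reads were counted close to the 3′ end of each transcript, and the libraries held 1880561 to 3985656 counts on genes. Values are given as CPM, counts scaled to a common library size after TMM scaling of the library sizes, and 3 counts, taken as the floor, stood at 0.79 to 1.63 CPM depending on the library. This floor covers counting error only, since copies made by PCR cannot be told apart, whereas the 95% intervals of fold changes also hold the spread between samples. As a check of the cells, the FAP genes Pdgfra, Thy1 and Col1a1 were present in both groups. Dcn, also a FAP gene, was called higher in SCA1-High-FAPs (590.2 against 139.7 CPM, log2 fold change -2.08, edgeR adjusted p = 0.0167), and Thy1 higher in SCA1-Low-FAPs (0.67 on the log2 scale, edgeR adjusted p = 0.0105). The satellite cell genes Pax7, Myf5 and Myod1 had no counts, but Itga7, whose protein was sorted against, averaged 2.03 CPM (SCA1-High-FAPs) and 3.03 CPM (SCA1-Low-FAPs), and Chodl 2.94 and 0.60 CPM. Of the leucocyte genes, Adgre1, Cd3e and Itgam had no counts, Ptprc averaged 0.12 CPM in SCA1-High-FAPs and 0 in the other group, Cd68 2.88 and 0.48 CPM, and Lyz2 was called higher in SCA1-High-FAPs (28.7 against 10.5 CPM, edgeR adjusted p = 0.0153). The mRNA of Ly6a, which encodes SCA-1, went against the sort after the 5 days of culture: SCA1-High-FAPs averaged 711 CPM and SCA1-Low-FAPs 1087 CPM (log2 fold change 0.61, edgeR adjusted p = 0.0341). The group names below therefore refer to the sort and not to the SCA-1 mRNA level at harvest.

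The replication genes that passed the test were all higher in SCA1-Low-FAPs, and most genes of the list did not pass it. Of the 47 genes that had enough counts to be tested, 11 were called higher in SCA1-Low-FAPs (23.4%), whereas 3.32% of all 10181 genes tested were called in that direction. A call required an adjusted p below 0.05 in edgeR's quasi-likelihood test and a log2 fold change beyond 0.5. The called genes were Cdc6, Mcm3, Mcm5, Gins2, Pola1, Rpa1, Rpa2, Lig1, Rrm1, Rrm2 and Tk1, with log2 fold changes from 0.74 to 1.58. None was called higher in SCA1-High-FAPs by edgeR or by DESeq2, against 4.36% of all genes called by edgeR in that direction. At an unadjusted edgeR p below 0.05, 0 of the 47 were higher in SCA1-High-FAPs, against 1103 of all 10181 genes tested. In the direction of SCA1-Low-FAPs these counts were 21 of the 47 and 1061 of all genes tested. The log2 fold change was positive for 44 of the 47 (93.6%) and for 50.0% of all genes tested, and its median was 0.62 against 0.00 over all genes. In 9 of the 47 genes (19.1%) the 4 SCA1-Low-FAP samples all lay above the 4 SCA1-High-FAP samples, which was so for 6.67% of all genes tested. These 9 were Cdc6, Cdt1, Gins1, Gins2, Pola1, Rpa1, Rrm1, Rrm2 and E2f1. The list was chosen with earlier results of these data known, so these shares only describe it. In bulk RNA, fewer cells of a type and less RNA per cell cannot be told apart, so these values do not separate a larger share of cycling cells from more replication mRNA in each cell. In a separate assay plated at a lower density, the study reported a shorter doubling time for SCA1-High-FAPs. Their share of Ki-67 positive cells later fell faster there, which the study related to earlier confluence. The study also injected mdx mice with EdU, which marks newly made DNA. In these animals a higher share of SCA1-High-FAPs than of SCA1-Low-FAPs carried the label. That assay read DNA synthesis in the animal, whereas the values here are mRNA of cultured cells. The confluence of the cultures sequenced here is not given, and its part in these values was not tested.

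**Figure D1:**
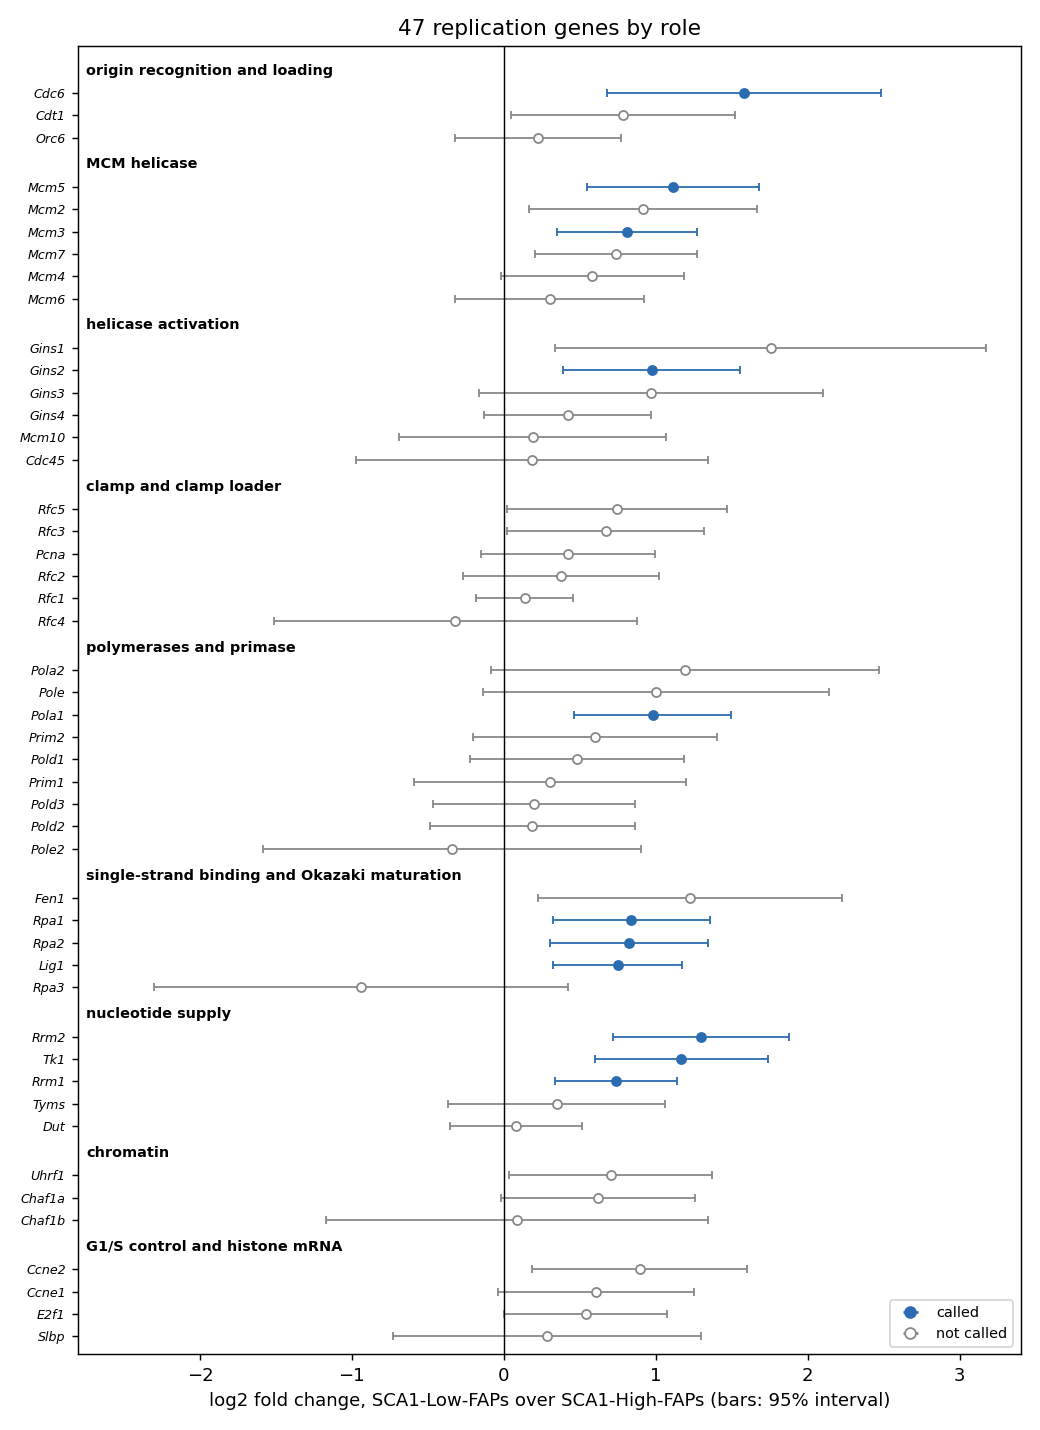
Log2 fold change (SCA1-Low-FAPs divided by SCA1-High-FAPs) for the 47 tested replication genes, grouped by role; points are estimates, bars 95% intervals, and filled points mark the 11 called genes. Most estimates lie right of 0, with 3 to the left (Rpa3, Pole2 and Rfc4), and the intervals of the lower-count genes are wide.

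How many genes passed depended on single libraries. Without replicate 1 of SCA1-Low-FAPs 2 genes were called, without replicate 4 of SCA1-Low-FAPs 2, without replicate 2 of SCA1-Low-FAPs 5, without replicate 4 of SCA1-High-FAPs 4 and without replicate 2 of SCA1-High-FAPs 6. Without replicate 1 or replicate 3 of SCA1-High-FAPs 8 genes were called each time, and without replicate 3 of SCA1-Low-FAPs 13. Calls over all genes moved as well: with all libraries 338 of 10181 were called higher in SCA1-Low-FAPs. Without SCA1-Low-FAP replicate 1 they were 159 of 10535, without replicate 4 164 of 10344 and without replicate 2 223 of 10538. Without SCA1-Low-FAP replicate 3 they were 434 of 10330, and without any 1 SCA1-High-FAP library from 255 to 290. Rrm2 was called in all 8 of these fits, with adjusted p up to 0.0373. Mcm5 and Tk1 were called in 6 of them: Mcm5 was lost without SCA1-Low-FAP replicate 1 (adjusted p = 0.0647) or replicate 2 (adjusted p = 0.0600), and Tk1 without SCA1-Low-FAP replicate 1 or replicate 4 (adjusted p = 0.0537 each time). Pola1 was called in 5, and was lost without SCA1-High-FAP replicate 4 or without SCA1-Low-FAP replicate 2 or 4, with adjusted p up to 0.0702. Cdc6, Lig1, Mcm3, Rpa1 and Rrm1 were called in 3 of the fits, with adjusted p up to 0.0978, 0.139, 0.131, 0.157 and 0.0855 in that order. Gins2 and Rpa2 were called in 2, with adjusted p up to 0.151 and 0.210. The size of the shift moved less than the calls did: the median log2 fold change of the tested genes stayed between 0.55 and 0.66 in the 8 fits.

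Origin licensing was led by Cdc6. Cdc6, which brings the MCM helicase to the origin recognition complex, measured 8.47, 5.43, 9.60 and 2.93 CPM in the SCA1-High-FAP replicates 1 to 4 and 22.7, 28.9, 13.6 and 14.5 CPM in the SCA1-Low-FAP replicates. The groups did not overlap, and the means of 6.61 ± 3.02 and 19.9 ± 7.22 CPM (SD, n = 4 each) gave a log2 fold change of 1.58 (SE 0.43, edgeR adjusted p = 0.0302), the largest among the called genes. Cdt1, the second loading factor, was also without overlap, at 7.10 to 16.0 CPM in SCA1-High-FAPs and at 16.9 to 34.8 CPM in SCA1-Low-FAPs, but it was not called (change of 0.78 on the log2 scale, edgeR adjusted p = 0.200). Orc6, a subunit of the origin recognition complex, had a log2 fold change of 0.23 with a 95% interval from -0.32 to 0.77. Orc1, its largest subunit, averaged 0.57 CPM in SCA1-High-FAPs and at 2.79 CPM in SCA1-Low-FAPs and was too low to be tested.

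The 6 genes of the MCM helicase, the ring that unwinds DNA at the fork, all had positive fold changes, and Mcm3 and Mcm5 were called. Mcm5 measured 29.2, 26.2, 25.1 and 48.04 CPM in SCA1-High-FAPs and at 81.2, 89.8, 42.2 and 67.3 CPM in SCA1-Low-FAPs. Its groups overlapped through the highest SCA1-High-FAP replicate and the lowest SCA1-Low-FAP replicate, and the log2 fold change was 1.11 (SE 0.27, edgeR adjusted p = 0.0163). Mcm3 measured 39.1, 44.3, 37.6 and 56.5 CPM in SCA1-High-FAPs and at 84.6, 53.9, 75.2 and 96.9 CPM in SCA1-Low-FAPs, with a log2 fold change of 0.81 (SE 0.22, edgeR adjusted p = 0.0290). Here too a single replicate of each group lay in the range of the other. Mcm2 (0.92), Mcm7 (0.74), Mcm4 (0.58) and Mcm6 (0.30) had positive log2 fold changes that were not called, with edgeR adjusted p of 0.132, 0.0863, 0.254 and 0.616. The 6 MCM proteins work in equal numbers in a ring, and these 6 mRNAs had log2 fold changes from 0.30 to 1.11 with wide and overlapping intervals. Summed over the 6 genes, SCA1-High-FAPs held 211 to 270.3 CPM and SCA1-Low-FAPs 319 to 459 CPM, a ratio of means of 1.67.

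Of the genes that activate the helicase, Gins2 was called. Gins2, a subunit of the GINS complex, measured 23.5, 21.7, 14.6 and 16.9 CPM in SCA1-High-FAPs and at 52.7, 37.6, 30.8 and 30.1 CPM in SCA1-Low-FAPs. Every SCA1-Low-FAP sample lay above every SCA1-High-FAP sample, and the log2 fold change was 0.97 (SE 0.28, edgeR adjusted p = 0.0380). Gins1, another subunit, had the largest estimate of all 47 genes, 1.76, from few counts (1.89 ± 1.62 CPM in SCA1-High-FAPs and at 6.50 ± 2.12 CPM in SCA1-Low-FAPs, SD, n = 4 each). Its 95% interval ran from 0.34 to 3.17 and it was not called (edgeR adjusted p = 0.128). The other two subunits, Gins3 and Gins4, had log2 fold changes of 0.97 and 0.42 that were not called. For Mcm10 (0.19) and Cdc45 (0.18), which join the helicase as it fires, the intervals reached from -0.69 to 1.07 and from -0.97 to 1.34, so that a difference in either direction lay within the error.

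Polymerase alpha, which starts each new strand, was represented by Pola1 among the called genes. Pola1, its catalytic subunit, measured 30.6, 33.9, 28.8 and 21.3 CPM in SCA1-High-FAPs and at 49.8, 76.2, 41.5 and 58.9 CPM in SCA1-Low-FAPs. The groups did not overlap, with a log2 fold change of 0.98 (SE 0.25, edgeR adjusted p = 0.0196). Its partner Pola2 had a larger estimate, 1.19, that was not called (edgeR adjusted p = 0.273), and SCA1-Low-FAP replicate 2 stood at 19.1 CPM while the others lay between 8.88 and 9.67 CPM. The primase genes Prim1 (0.30) and Prim2 (0.60), the polymerase delta genes Pold1 (0.48), Pold2 (0.19) and Pold3 (0.20) and the polymerase epsilon gene Pole (1.00) had positive log2 fold changes that were not called. Pole2, the second subunit of polymerase epsilon, had a log2 fold change of -0.34 that was not called either. Of these 9 genes, 1 was called, and their median log2 fold change was 0.48.

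None of the 6 genes of the sliding clamp and its loader was called by edgeR, and 2 of them, Rfc3 and Rfc5, reached an unadjusted p of 0.05. Of all 10181 genes tested, 1061 reached it with higher values in SCA1-Low-FAPs and 1103 with higher values in SCA1-High-FAPs. Pcna, the clamp itself and a common marker of cycling cells, measured 31.1, 28.0, 18.0 and 21.6 CPM in SCA1-High-FAPs and at 29.0, 44.6, 33.0 and 26.1 CPM in SCA1-Low-FAPs. The groups overlapped widely, and the log2 fold change was 0.42 with a 95% interval from -0.15 to 0.99 (edgeR adjusted p = 0.409). Reads that aligned to more than 1 place were given to no gene by the authors, and Pcna has 2 annotated pseudogenes, so its level is uncertain. Rfc1, the large subunit of the loader, had the narrowest interval of the group, from -0.18 to 0.45 around a log2 fold change of 0.14. Rfc5 (0.75), Rfc3 (0.67) and Rfc2 (0.38) had positive estimates and Rfc4 a negative one (-0.32). The median of the 6 was 0.40.

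Of the genes for single-strand binding and Okazaki fragment joining, 3 of 5 were called. Lig1, the ligase that seals Okazaki fragments, measured 150.2, 143, 204 and 127 CPM in SCA1-High-FAPs and at 262, 225, 189.7 and 369.6 CPM in SCA1-Low-FAPs. SCA1-High-FAP replicate 3 lay above SCA1-Low-FAP replicate 3, the other samples were separated by group, and the log2 fold change was 0.75 (SE 0.20, edgeR adjusted p = 0.0301). Rpa1, the large subunit of the RPA complex that coats single-stranded DNA, measured 37.2, 43.4, 34.7 and 23.5 CPM in SCA1-High-FAPs and at 78.3, 49.0, 47.6 and 72.3 CPM in SCA1-Low-FAPs, without any overlap (log2 fold change 0.84, SE 0.25, edgeR adjusted p = 0.0441). Rpa2, the middle subunit, measured 34.4, 37.5, 62.2 and 48.8 CPM in SCA1-High-FAPs and at 82.2, 80.6, 51.1 and 111 CPM in SCA1-Low-FAPs, with overlap (log2 fold change 0.83, SE 0.25, edgeR adjusted p = 0.0487). With RLE in place of TMM scaling its adjusted p was 0.0501, so that this call sits at the threshold. Rpa3, the small subunit of the same complex, had the lowest estimate of the 47 genes, -0.94, with a 95% interval from -2.30 to 0.42 (edgeR adjusted p = 0.445), at 1.36 to 15.5 CPM in SCA1-High-FAPs and at 1.58 to 7.61 CPM in SCA1-Low-FAPs. Fen1, the flap nuclease, had a log2 fold change of 1.23 (95% interval 0.23 to 2.22) and was not called (edgeR adjusted p = 0.131).

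Nucleotide supply held the gene with the smallest adjusted p. Rrm2, the S phase subunit of ribonucleotide reductase, measured 93.2, 50.6, 35.9 and 77.4 CPM in SCA1-High-FAPs and at 180.3, 175, 102 and 176 CPM in SCA1-Low-FAPs. The groups did not overlap although SCA1-Low-FAP replicate 3 lay well below the other replicates of its group, and the log2 fold change was 1.30 (SE 0.27, edgeR adjusted p = 0.00935). Rrm1, the large subunit of the same enzyme, measured 119, 105, 72.2 and 97.2 CPM in SCA1-High-FAPs and at 153, 207, 122 and 176 CPM in SCA1-Low-FAPs, also without overlap (log2 fold change 0.74, SE 0.19, edgeR adjusted p = 0.0238). Tk1, the thymidine kinase of cycling cells, measured 36.3, 46.1, 31.3 and 20.2 CPM in SCA1-High-FAPs and at 89.4, 76.2, 44.7 and 89.8 CPM in SCA1-Low-FAPs. Only SCA1-Low-FAP replicate 3 fell within the SCA1-High-FAP range, and the log2 fold change was 1.17 (SE 0.27, edgeR adjusted p = 0.0129). Tyms, thymidylate synthase, had a log2 fold change of 0.35 that was not called. Dut, which removes dUTP, had one of 0.08 with a 95% interval from -0.35 to 0.51, so that a change as large as that of Rrm2 lay outside its interval.

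**Figure D2:**
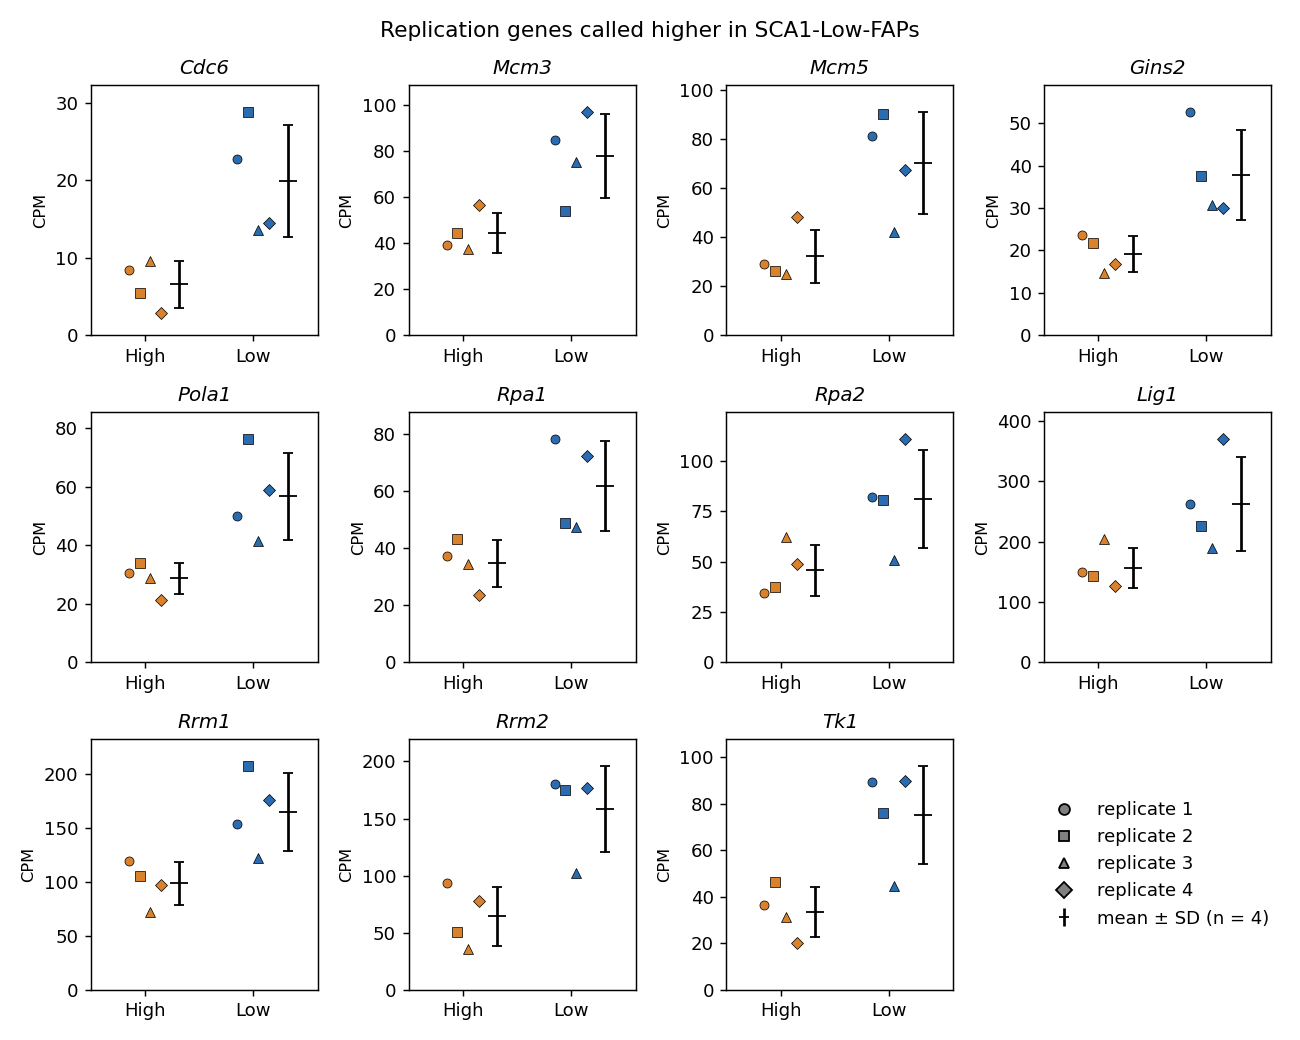
CPM of the 11 called replication genes in each replicate of SCA1-High-FAPs (orange) and SCA1-Low-FAPs (blue); symbols mark the replicate number and black bars the mean ± SD (n = 4). In Cdc6, Gins2, Pola1, Rpa1, Rrm1 and Rrm2 all SCA1-Low-FAP samples lie above all SCA1-High-FAP samples, and in Rrm2 replicate 3 of SCA1-Low-FAPs stands apart at 102 CPM.

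Chromatin and G1/S control genes had positive estimates, and none of these 7 genes was called by edgeR, with 3 of them (Uhrf1, Ccne2 and E2f1) at an unadjusted p below 0.05. Of all 10181 genes tested, 1061 were at such a p and higher in SCA1-Low-FAPs, and 1103 were higher in SCA1-High-FAPs. Uhrf1, which brings the maintenance DNA methyltransferase to new DNA, had a log2 fold change of 0.70 (edgeR adjusted p = 0.207). The chromatin assembly genes Chaf1a and Chaf1b had 0.62 and 0.09. E2f1, the transcription factor, measured 17.4, 18.5, 24.6 and 22.7 CPM in SCA1-High-FAPs and at 32.9, 27.8, 26.6 and 34.1 CPM in SCA1-Low-FAPs. Its groups did not overlap, but the log2 fold change of 0.54 was not called (edgeR adjusted p = 0.232). The cyclin E genes Ccne1 and Ccne2, partners of CDK2 at the G1/S boundary, had log2 fold changes of 0.61 and 0.89 (edgeR adjusted p = 0.266 and 0.122). Slbp, whose protein binds the stem loop of histone mRNA, had 0.28.

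**Figure D3:**
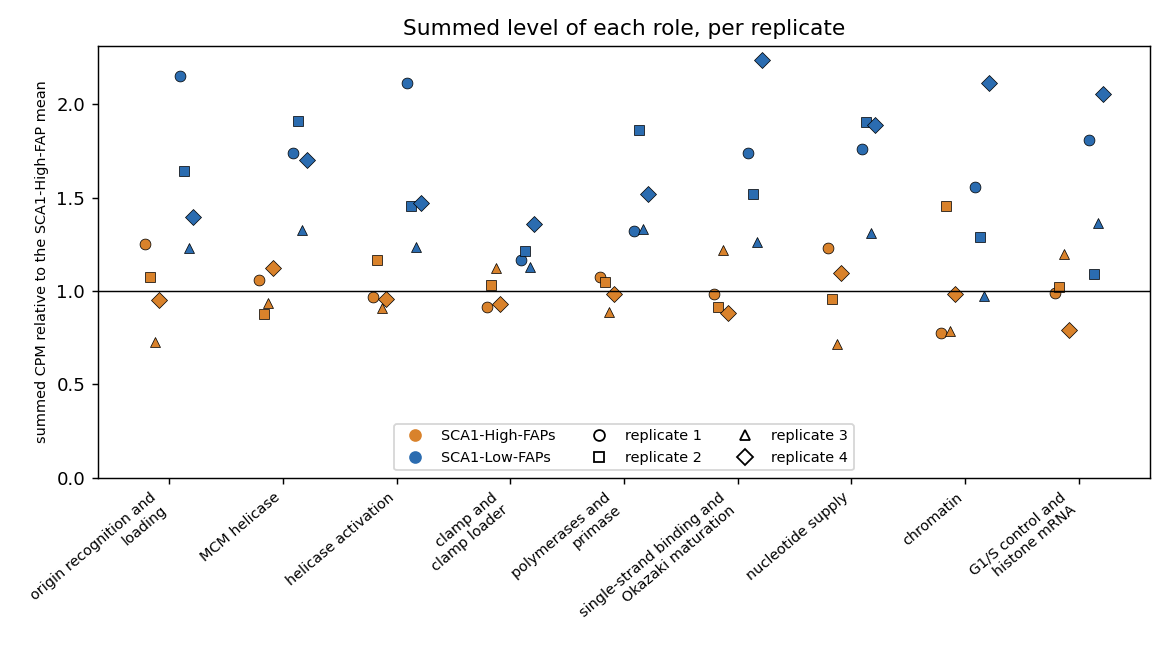
Summed CPM of the genes of each role in every replicate, divided by the SCA1-High-FAP mean of that role; orange symbols are SCA1-High-FAPs, blue symbols SCA1-Low-FAPs, and shapes mark replicate numbers. The ratio of group means runs from 1.22 for the clamp and clamp loader to 1.72 for nucleotide supply, and replicate 3 is the lowest SCA1-Low-FAP sample in 7 of the 9 roles.

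Set side by side, the roles had ratios of summed CPM between 1.22 and 1.72. Nucleotide supply (1.72), single-strand binding and Okazaki maturation (1.69), the MCM helicase (1.67), origin recognition and loading (1.604), G1/S control (1.58), helicase activation (1.57), polymerases and primase (1.51) and chromatin (1.48) were followed by the clamp and its loader (1.22). A sum is led by its genes of high count, so that in the clamp and loader group Rfc1, at a mean of 143 CPM in SCA1-High-FAPs, weighs most. The differences between roles were not tested.

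Over the whole list, the summed level was 1451, 1370.3, 1340.2 and 1373 CPM in the SCA1-High-FAP replicates and 2271, 2241, 1744 and 2449 CPM in the SCA1-Low-FAP replicates. The groups did not overlap, with means of 1384 ± 47.1 and 2176 ± 303 CPM (SD, n = 4 each) and a ratio of 1.57. The SCA1-High-FAP samples lay close together, whereas SCA1-Low-FAPs spread more widely through replicate 3. The same replicate was the lowest SCA1-Low-FAP sample when each gene was weighted alike: the median deviation of the 47 genes from their mean over all samples was 0.44, 0.35, 0.09 and 0.55 on the log2 scale in SCA1-Low-FAPs and -0.25, -0.22, -0.43 and -0.23 in SCA1-High-FAPs.

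Summed markers of adipocytes and leucocytes were separated by group as well, whereas those of smooth muscle and pericytes and of satellite cells overlapped. Endothelial sums were separated too, but from 0 to 19 counts per sample. The summed level of 6 adipocyte genes ran from 1057 to 5566 CPM in SCA1-High-FAPs and from 119 to 641 CPM in SCA1-Low-FAPs, where replicate 3 was the highest SCA1-Low-FAP sample. Of these 6 genes Adipoq, Lipe and Retn were called higher in SCA1-High-FAPs, and none had a mean of 0. Leucocyte genes summed to 23.1 to 43.0 CPM in SCA1-High-FAPs and at 6.77 to 15.9 CPM in SCA1-Low-FAPs, nearly all of it from Lyz2, while 3 of the 6 (Adgre1, Cd3e and Itgam) had no counts. Smooth muscle and pericyte genes summed to 22.6 to 32.5 CPM and 23.5 to 65.9 CPM: Cspg4 and Myh11 were called higher in SCA1-Low-FAPs (log2 fold changes 2.40 and 1.85), and Notch3 the other way (-1.54). Endothelial genes summed to 0 to 0.42 CPM and 0.48 to 6.53 CPM, with Tie1 and Emcn at 0. Satellite cell genes summed to 0 to 12.7 CPM in SCA1-High-FAPs and at 1.06 to 9.80 CPM in SCA1-Low-FAPs. The FAP genes themselves summed to 8018 to 10732 CPM and 6954 to 10262 CPM, most of it from Col1a1. The share of reads with more than 1 alignment, which the authors left out, was 37.5% to 39.7% in SCA1-High-FAPs and 40.8% to 43.3% in SCA1-Low-FAPs. The part of these differences in the result for the replication genes was not tested.

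Whether a replication gene was called went with its level. Among the 24 genes at or above the median mean level of 24.5 CPM, 10 were called, and the median log2 fold change was 0.74 with a median SE of 0.26. Among the 23 below it 1 was called, Cdc6, with a median log2 fold change of 0.60 and a median SE of 0.43. Of the 36 genes that were not called, 17 had a log2 fold change above 0.5 and 10 had a 95% interval that left out 0. In 25 of the 36 the interval reached a log2 fold change of 1, so that a difference of that size lay within the error, and in 11 it stayed below 1.

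**Figure D4:**
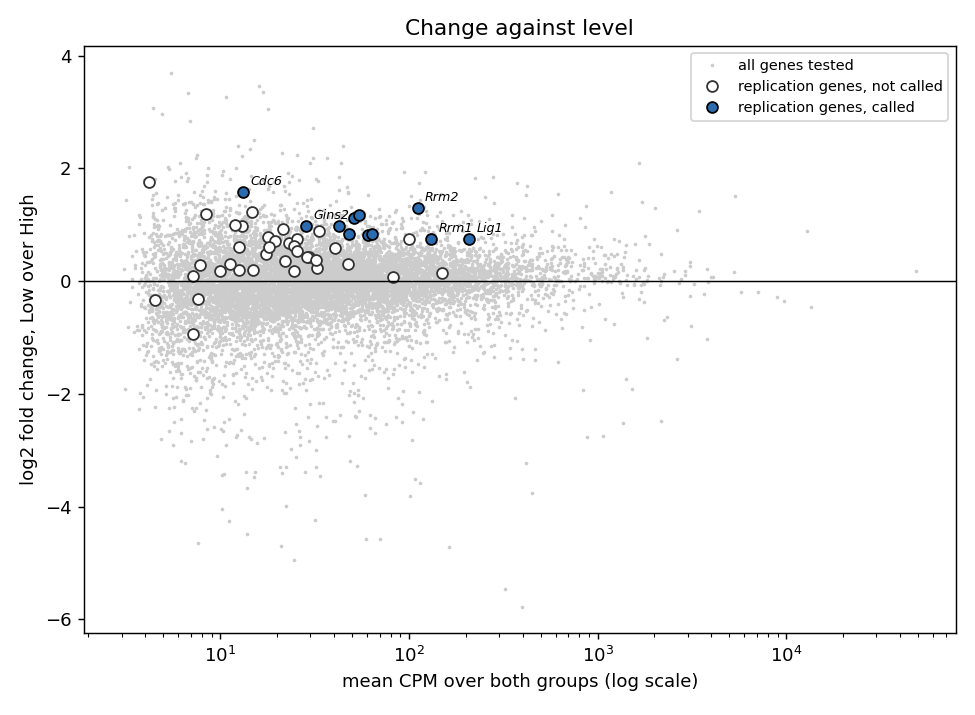
Log2 fold change (SCA1-Low-FAPs divided by SCA1-High-FAPs) against the mean CPM over both groups (log scale); grey dots are all 10181 genes tested, open circles the 36 replication genes that were not called and filled circles the 11 called. Most replication genes lie above 0, and 10 of the 11 called genes lie at or above 24.5 CPM.

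Other genes of the replication pathway were counted in the same way. Of 68 such genes outside the 48, 63 were tested, with a median log2 fold change of 0.33. Of these, 7 were called higher in SCA1-Low-FAPs (11.1%, against 3.32% of all genes tested). In the other direction 1 was called (Samhd1), against 4.36% of all genes tested. In 12 of the 63 (19.0%) all SCA1-Low-FAP samples lay above all SCA1-High-FAP samples, against 6.67% of all genes tested. In 2 of the 63 the order was reversed, against 759 of all 10181 genes. The difference from the 48 genes was not tested. Without SCA1-Low-FAP replicate 1, 4 of these genes were called higher, and 159 of all 10535 genes tested. Ccna2, the cyclin of S phase and G2, had the largest estimate among the called genes, 1.34 (16.2 ± 4.36 against 41.2 ± 9.85 CPM, SD, n = 4 each, edgeR adjusted p = 0.00762). Dbf4, which activates the CDC7 kinase at origins, rose by 1.21, Hat1, a histone acetyltransferase, by 1.15, Clspn, a fork checkpoint protein, by 1.13 and Hells, a chromatin remodeller, by 1.03, all on the log2 scale. Samhd1, a phosphohydrolase that breaks down dNTPs, was the called gene of the opposite direction: it measured 305.6, 304.3, 305.2 and 237 CPM in SCA1-High-FAPs and at 121, 163, 177 and 116 CPM in SCA1-Low-FAPs, without any overlap (log2 fold change -0.997, SE 0.17, edgeR adjusted p = 0.00173). Rrm1, Rrm2 and Tk1, which act on the side of dNTP supply, were called in the opposite direction to Samhd1, and Tyms and Dut were not called.

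Histone genes, taken by their symbols and not by replication dependence, could hardly be followed. The mRNAs of replication-dependent histone genes mostly end in a stem loop without a poly(A) tail, and the libraries were primed on poly(A). Which of the listed genes depend on replication was not checked. Of 67 listed histone genes 12 had enough counts to be tested, and 0 were called by edgeR. An unadjusted edgeR p below 0.05 was found for 2 of the 12, 1 in each direction, and for 2164 of all 10181 genes tested. Of the 12 histone genes, 9 had a positive log2 fold change, and the estimates ran from -1.10 to 1.37.

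Mitosis genes, another group that follows the cell cycle, are given for comparison. All 40 were tested, and 28 were called higher in SCA1-Low-FAPs (70.0%), against 11 of 47 replication genes (23.4%) and 3.32% of all genes tested. The median log2 fold change was 0.98 for the mitosis genes and 0.62 for the replication genes. Aurka, a kinase of the mitotic spindle, had the largest estimate at 2.27, followed by the kinase genes Ttk (1.45) and Plk1 (1.26), the kinetochore gene Nuf2 (1.39) and the motor gene Kif20a (1.26). The summed level of the mitosis genes was 2393, 2454, 1799 and 2409 CPM in SCA1-High-FAPs and at 4712, 4462, 3438 and 4612 CPM in SCA1-Low-FAPs, a ratio of means of 1.90. Replicate 3 was thus the lowest sample of each group in this list as well. The 2 lists were compared in the same samples and their difference was not tested.

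**Figure D5:**
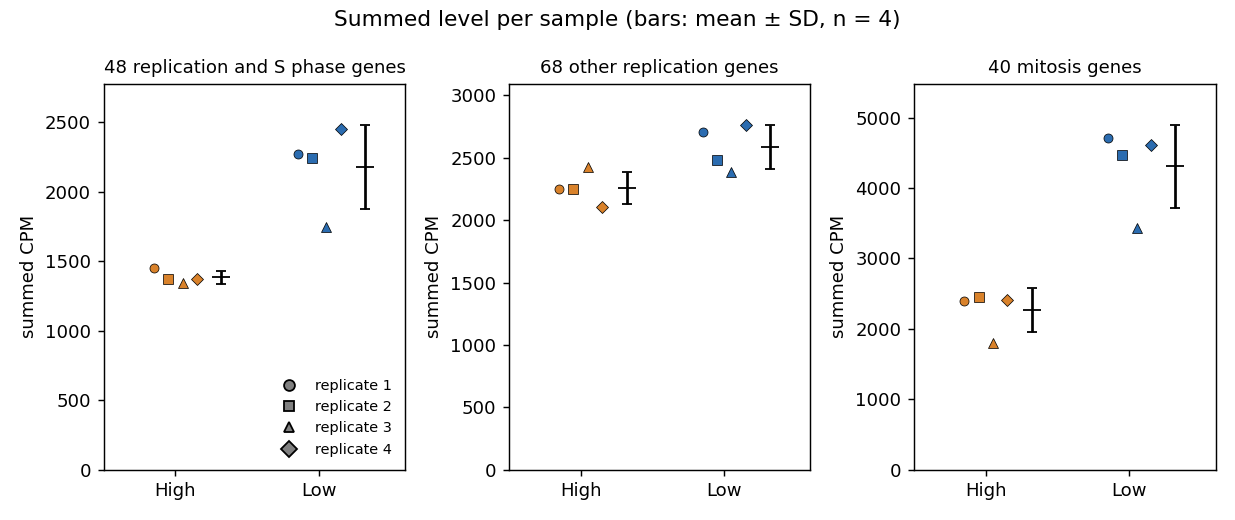
Summed CPM per sample of the 48 replication and S phase genes, 68 other replication genes and 40 mitosis genes; symbols mark replicates, orange SCA1-High-FAPs, blue SCA1-Low-FAPs, and bars the mean ± SD (n = 4). The ratio of group means is 1.57, 1.15 and 1.90 in that order, and in the panels of the 48 genes and of mitosis no SCA1-Low-FAP sample falls among the SCA1-High-FAP samples.

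The 48 genes are spread over 14 chromosomes (GENCODE M21, GRCm38). Exons of 3 of them share bases on the same strand with another annotated gene (Mcm7 with Mir25 and Mir93, Pole2 with Gm49384 and Rpa1 with Gm47300). Exons of 15 share bases with a gene on the opposite strand, among them the called genes Gins2 (with Gse1), Lig1 (with Zswim9) and Tk1 (with Afmid). The strand setting of the counting is not given in the sources used here, so reads of these genes and of their partners may not have been told apart. Tyms, like Pcna, has an annotated pseudogene, and its level is uncertain for the same reason.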

How the data were processed

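RNA was measured in 4 SCA1-High-FAP and 4 SCA1-Low-FAP cultures, grouped as labelled. Per the labels and the study's methods, the authors made QuantSeq 3′ FWD libraries, trimmed the reads, aligned them with STAR to mm10 and used htseq-count for Ensembl genes. The authors deposited whole-number counts of reads for each gene with no normalisation, and multi-mapped reads were given to no gene. Summary entries of htseq-count were left out, and reads on no feature made up 7.87% to 10.2% of all reads. Identifiers were named with GENCODE M21, which named 30934 of the 31053.

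Counts were compared with edgeR 4.0.16 (robust quasi-likelihood test, TMM, R 4.3.3) over the 10181 genes, of 15873 with at least 1 count, that filterByExpr kept with a minimum of 10 counts and 15 in total. P-values were adjusted over all of these by Benjamini-Hochberg, and all adjusted p are from edgeR unless another tool is named. Standard errors derive from the F statistic, and 95% intervals use the degrees of freedom of each gene. The depth was 1880561 to 3985656 counts per sample. No pair of libraries of a group agreed within sampling noise (chi-square per degree of freedom 7.68 to 21.8). The study's description names 4 mice for both groups but not which samples share one, and p-values measure the spread between these samples.

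Alternatives were DESeq2 1.42.0, RLE factors, other filters, a replicate block and each library left out. The test was checked on simulated data. All 48 genes could be named, and, of the other lists, the 5 called genes with the largest fold changes together with any called in the opposite direction. The 48 genes and the other lists were set by function, except the histone genes, which were taken by symbol. The choice was made with earlier results of these data known. Sequences came from RefSeq promoter entries. Figures used Python 3.11.15, pandas 2.3.3 and matplotlib 3.10.9.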

Additional observations from a re-analysis of the deposited data

Results flagged for a closer look

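In 6 of 102 sets of 4 replicates, 1 sample lay apart from the other 3 by more than Dixon's 95% critical value, a gap that chance gives in about 1 of 20 sets. Mcm6 was 18.4 CPM in SCA1-High-FAP replicate 3 and 49.5 to 50.6 CPM in the other SCA1-High-FAP samples. Rfc1 was 169.5 CPM in the same replicate and 132 to 137 CPM in the others. Rrm2 was 102 CPM in SCA1-Low-FAP replicate 3 against 175 to 180.3 CPM in the others. In SCA1-Low-FAP replicate 2, Rfc3 was 14.7 CPM against 32.5 to 34.3 CPM, and Pola2 was 19.1 CPM against 8.88 to 9.67 CPM. The summed level of the mitosis genes was 1799 CPM in SCA1-High-FAP replicate 3 and 2393 to 2454 CPM in the other samples of that group. Their causes were not tested.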

How the results depend on the processing

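The number of replication genes called higher in SCA1-Low-FAPs was 11 with DESeq2 (the same 11), 10 with RLE factors, 14 with no filter beyond 1 count and 10 of 35 tested with at least 10 counts in every sample. It ran from 2 to 13 when each library was left out in turn, and that of the other replication genes from 4 to 8. Over all genes tested, the number called in that direction ran from 159 to 434 in the same fits. The mitosis count ran from 21 to 30. The median log2 fold change of the replication genes lay between 0.55 and 0.66 under all alternatives tried. Genes near 0 that were not called changed sign when a library was left out: log2 fold changes ran from -0.23 to 0.58 for Cdc45, from -0.37 to 0.62 for Chaf1b, from -0.038 to 0.20 for Dut, from -0.075 to 0.40 for Pold2 and from -0.90 to 0.066 for Rfc4. With the replicate number as a block, 8 replication genes were called, and Lig1, Rpa1 and Rpa2 were lost. The labels do not say that equal numbers mark 1 mouse, and over all genes tested same-numbered samples did not deviate together (correlations of -0.02, 0.01, -0.01 and -0.05). The block is therefore not taken as a pairing, although replicate 3 was the lowest of both groups in the summed level of the replication and of the mitosis genes. Pairs of unlike number correlated at -0.28 to 0.25, the highest being SCA1-High-FAP replicate 3 with SCA1-Low-FAP replicate 4. Whether samples of unlike number shared a mouse was not tested. The median SE was 0.43 for the replication genes below 24.5 CPM and 0.26 for the others. The causes of these differences between settings were not tested.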
